A study of Homo sapiens with 2 samples.

Results

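The genes that define the alveolar type II cell were followed in A549 cells held for 4 h in static culture or for 4 h in stretch culture. A549 is an established human line from a lung adenocarcinoma, often used as a stand-in for the alveolar type II cell. The set holds 10 genes of 14884 named on the array, chosen by symbol with earlier results of these data known. They are the surfactant proteins SFTPA1, SFTPA2, SFTPB, SFTPC and SFTPD, the lipid enzyme LPCAT1, the lamellar body and processing genes LAMP3 and NAPSA, and the lineage factors NKX2-1 and GATA6. All 10 were named, through 11 probe sets of 53617, with 2 for NKX2-1 and 1 for each other gene. Both conditions were represented by 1 Affymetrix array each, of total RNA labelled with biotin, so no value here has a replicate, no test between conditions exists and no p-value is given. No treatment other than the culture condition is named for either array. How the stretch was applied, how strong it was and how many cultures gave each RNA were not stated in the labels used here. One sample's title spells the line A594, while its source name gives A549. The title of the series connects stretch with the invasion of lung cancer cells, and no label names surfactant.

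Alveolar type II cells line the air sacs together with the flat type I cells, which arise from them. They make pulmonary surfactant, a film of phospholipid and protein that lowers surface tension, store it in lysosome-related organelles called lamellar bodies, and release it when the lung is stretched, so stretch is a known stimulus of surfactant secretion in these cells. NKX2-1, a homeodomain factor, switches on the surfactant protein genes together with GATA6 and FOXA factors. Many lung adenocarcinomas keep this programme, and pathologists use NKX2-1 (called TTF-1 in diagnosis) and napsin A, the product of NAPSA, as markers of it.

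Promoter sequence is shown for 4 members. SFTPA1 and SFTPA2 are near-identical neighbouring genes on chromosome 10 whose likeness bears on what their probe sets can read, and LPCAT1 and GATA6 were the members with signals above background on both arrays. Each run gives the 250 bases before the RefSeq start of the gene (GRCh38.p14), 5′ to 3′ on the strand of the gene, with the TATA box motif TATAAA in capitals. The windows are chr10:79610689-79610938 (plus strand) for SFTPA1, chr10:79560408-79560657 (minus strand) for SFTPA2, chr5:1523961-1524210 (minus strand) for LPCAT1 and chr18:22169339-22169588 (plus strand) for GATA6.
SFTPA1: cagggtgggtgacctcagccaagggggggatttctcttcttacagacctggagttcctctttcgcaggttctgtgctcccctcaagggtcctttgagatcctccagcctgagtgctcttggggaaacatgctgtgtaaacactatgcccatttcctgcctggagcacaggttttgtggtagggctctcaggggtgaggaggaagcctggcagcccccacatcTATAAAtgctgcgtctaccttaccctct
SFTPA2: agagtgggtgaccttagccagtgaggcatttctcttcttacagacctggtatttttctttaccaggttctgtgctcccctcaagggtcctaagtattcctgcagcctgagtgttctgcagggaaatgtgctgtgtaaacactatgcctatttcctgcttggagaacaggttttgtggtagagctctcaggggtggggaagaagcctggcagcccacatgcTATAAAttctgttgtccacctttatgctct
LPCAT1: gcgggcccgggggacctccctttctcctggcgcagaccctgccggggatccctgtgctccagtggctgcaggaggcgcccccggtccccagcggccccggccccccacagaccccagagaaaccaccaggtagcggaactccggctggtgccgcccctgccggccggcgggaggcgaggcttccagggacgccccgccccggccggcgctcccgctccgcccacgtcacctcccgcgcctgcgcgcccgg
GATA6: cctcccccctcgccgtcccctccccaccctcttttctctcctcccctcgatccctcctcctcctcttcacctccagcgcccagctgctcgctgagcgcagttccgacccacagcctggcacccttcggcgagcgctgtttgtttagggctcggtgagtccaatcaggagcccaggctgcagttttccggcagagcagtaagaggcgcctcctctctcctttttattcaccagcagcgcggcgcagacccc

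The SFTPA1 and SFTPA2 windows aligned over 254 columns, of which 213 were identical (83.9%), 33 were substitutions and 8 were gaps. Both carry 1 TATAAA, beginning at position -28 from the start in SFTPA1 and at -30 in SFTPA2. The motif, read on both strands, occurs in 10.7% of 35116 promoter windows of this length. No match lies in the windows of LPCAT1 and GATA6, which says only that these letters are not in these bases. The pair also differs from LPCAT1 and GATA6 in base composition. SFTPA1 holds 2 CG dinucleotides and SFTPA2 holds 0, against 28 in LPCAT1 and 16 in GATA6, where the median window holds 11. The GC content was 55.2% for SFTPA1, 48.4% for SFTPA2, 78.8% for LPCAT1 and 64.4% for GATA6. A promoter match or composition is a description and was not tied to any difference between the arrays.

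Signals are RMA values (a log2 summary of the probes in each probe set), and every difference is stretch minus static on the log2 scale. As a guide to background, the 95th percentile of 25 genes of unrelated tissues such as retina, testis and pituitary was taken over both arrays, at 4.15. Values up to it are called background. The highest single value among those genes was 4.71, and 17 of the 25 were lower on the stretched array, with a largest difference of 0.72 in size. Of these 25, 0 differed by 2-fold and 3 by 1.5-fold. Past the level filter described next, the largest differences among them were those of GFAP (-0.72), LHB (0.51), LORICRIN (-0.47) and TG (-0.40). A level filter, met when the higher of the 2 array values reached 2.52 (the median of all values), left 10981 named genes. Under stretch, 12.3% of these were higher by 2-fold or more and 2.5% lower, and at 1.5-fold the shares were 27.7% and 8.9%. Genes higher thus made up 75.7% of those past 1.5-fold, a share that was 83.9% with the arrays centred on their medians, 60.3% after loess (a fit of the difference on the mean signal), 54.0% after quantile normalization and 22.4% with the arrays centred on 13 reference genes. The median difference past the filter was 0.20 as deposited, 0.31 after median centring, 0.04 after loess, 0.00 after quantile normalization and -0.34 after centring on reference genes. The reference genes were not stable themselves: 6 of 13 were higher by 1.5-fold or more and 0 lower as deposited, with a median of 0.53, led by PPIA (1.72), IPO8 (1.34), VCP (1.25) and SNRPD3 (0.99). Centring on them lowers every difference by 0.50. Past 1.5-fold were then 1098 genes higher and 3814 lower, of 11545 past the filter. After quantile normalization the counts were 1815 and 1545 of 10943, and after loess 2031 and 1337 of 10981. Counts of lists under these scalings are to be read beside those. The median difference also varied with level, at 0.38 for genes with a mean above the background bound and 0.00 for those past the filter with a mean at background. Counts of members are to be read against this lean.

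Most of the 10 members gave no signal above background in either condition. Of the 10 genes, 8 lay at background in both conditions, among them all 5 surfactant protein genes and NKX2-1, and LPCAT1 and GATA6 lay above it on both. Among all 14884 named genes, 6781 reached the bound on at least 1 array, so signal at background was common over the whole array. The 2 genes past 2-fold were LPCAT1 (1.22) and SFTPA2 (1.06), both higher under stretch. At 1.5-fold, 3 genes were higher, with GATA6 (0.82) as the third, and 1, LAMP3 (-0.71), was lower, while 6 differed by less. The genes so counted are among the 7 members that met the level filter. Their counts, 2 higher by 2-fold, and 3 higher and 1 lower by 1.5-fold, are thus of 7. They stand beside 12.3%, 27.7% and 8.9% of all genes past the filter. Over all 10 genes the differences ran from -0.71 to 1.22 with a median of -0.05. In all, 7 genes met the level filter. SFTPA1, NAPSA and NKX2-1 did not. In RNA from a whole culture, fewer cells with a transcript and less transcript per cell cannot be told apart.

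**Figure D1:**
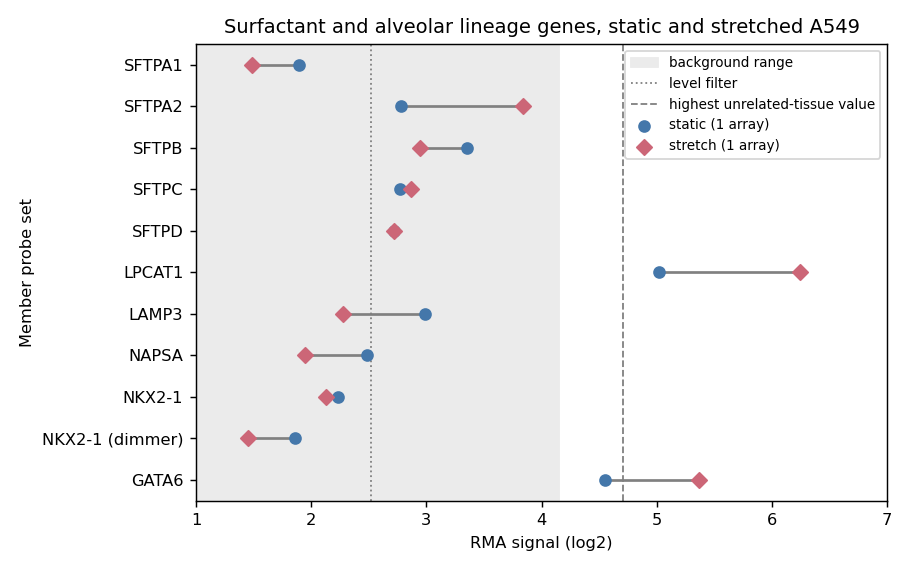
RMA signal (log2, horizontal axis) of the 11 member probe sets on the static array (blue circles) and the stretched array (red diamonds), 1 array each; grey shading is the background range up to 4.15, the dotted line the level filter at 2.52 and the dashed line the highest value of an unrelated-tissue gene, 4.71. LPCAT1 and GATA6 are the members outside the shading, and the 2 SFTPD values coincide at 2.72.

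SFTPA1 and SFTPA2 encode surfactant protein A, a collectin that binds microbes in the air space through its lectin domain. SFTPA1 (probe set 16706522) read 1.89 static and 1.49 stretched, or -0.40. SFTPA2 (16715978) read 2.78 and 3.84, a difference of 1.06 or 2.08-fold. The stretched array was the lower one for SFTPA1 and the higher one for SFTPA2, with all 4 values at background, and unrelated-tissue genes differed by as much as SFTPA1 did. Of the 10981 genes past the filter, 10.7% were at least as much higher as SFTPA2. Among the 4789 of these whose mean lay within the background range, as that of SFTPA2 did, 6.41% were at least 2-fold higher. Both SFTPA2 values remain under the bound of 4.15, and probe sets of near-identical genes can bind transcript of either copy, so these signals are uncertain as to the gene they read. With the arrays centred on reference genes, SFTPA2 stood at 0.56, short of 1.5-fold. Under the other scalings it stayed past 2-fold, up to 1.16.

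SFTPD encodes surfactant protein D, the other collectin of surfactant, and lies in the same gene cluster. Its probe set (16716008) read 2.72 on both arrays. The collectin genes outside the lung set gave little signal as well: COLEC10, COLEC11 and COLEC12 read 2.19, 3.41 and 1.60 on the static array and 2.26, 2.98 and 1.74 on the stretched array, all within the background range.

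SFTPB and SFTPC encode the small hydrophobic proteins that spread the phospholipid film, and loss of SFTPB causes fatal respiratory failure at birth. SFTPB (16899739) read 3.35 static and 2.94 stretched, a difference of -0.41. SFTPC (17066506), whose product is regarded as the most specific marker of type II cells, read 2.77 and 2.87, a difference of 0.10. Neither difference reached 1.5-fold and all 4 values lay within the background range. A difference as low as that of SFTPB or lower was seen for 14.6% of genes past the filter, and 57.6% were at least as high as SFTPC. On centring by reference genes SFTPB stood at -0.91 and SFTPC, with its sign turned, at -0.40.

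LPCAT1 encodes the acyltransferase that makes dipalmitoyl phosphatidylcholine, the main surface-active lipid of surfactant, by adding a palmitoyl chain to lysophosphatidylcholine. It is also expressed widely outside the lung and is often high in tumours. Its probe set (16994002) read 5.02 static and 6.24 stretched, a difference of 1.22 or 2.33-fold. Both values exceed 4.71, the highest reading of any unrelated-tissue gene. Of genes past the filter, 7.54% were at least as much higher. Among the 6192 with a mean above the background bound, 16.8% were at least 2-fold and 36.9% at least 1.5-fold higher. LPCAT1 stayed past 1.5-fold under each scaling tried, between 0.72 and 1.32, but fell short of 2-fold after quantile normalization (0.80), loess (0.86) and centring on reference genes (0.72).

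**Figure D2:**
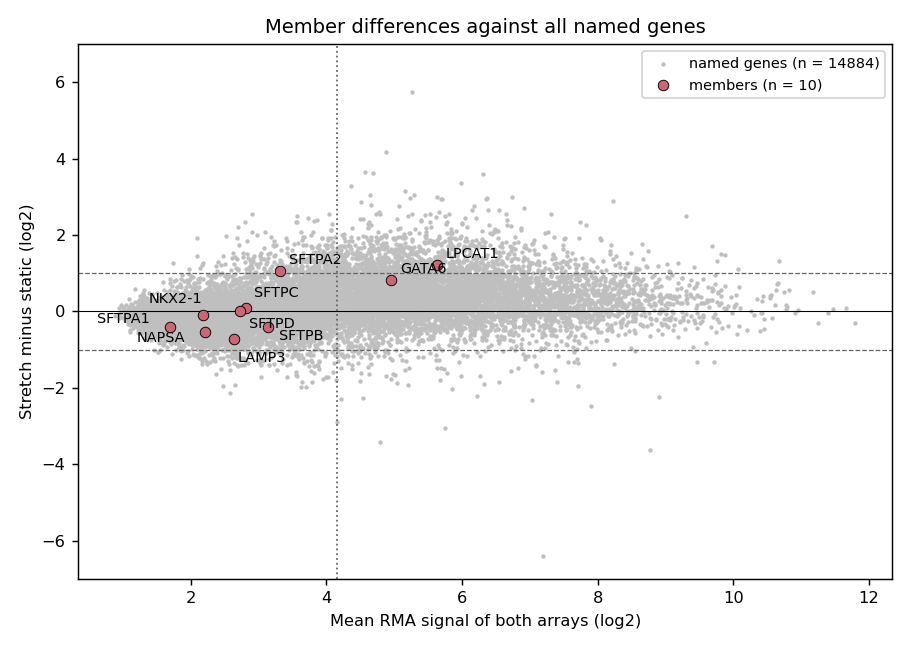
Difference (stretch minus static, log2, vertical axis) against the mean signal of both arrays (log2, horizontal axis) for 14884 named genes (grey) and the 10 members (red, labelled); dashed lines mark 2-fold and the dotted line the background bound of 4.15. LPCAT1 and GATA6 lie right of the dotted line within the upper part of the cloud, and SFTPA2 at 1.06 lies above the dashed line at a dim mean.

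LAMP3 and NAPSA belong to the lamellar body and the processing of surfactant proteins. LAMP3, or DC-LAMP, is a lysosomal membrane glycoprotein of lamellar bodies and of mature dendritic cells. Its probe set (16962022) read 2.99 static and 2.28 stretched, a difference of -0.71. NAPSA encodes napsin A, the aspartic protease that helps cleave the SFTPB precursor, and read 2.48 and 1.95 (16874546), a difference of -0.53, short of 1.5-fold. Both genes read lower on the stretched array, and all 4 values lay within the background range. The LAMP3 difference is no larger in size than the 0.72 of the unrelated-tissue genes. Differences as low as that of LAMP3 occurred in 6.11% of genes past the filter. Among genes past the filter with a mean in the background range, 14.2% were at least 1.5-fold lower. LAMP3 lay between -1.21 and -0.60 across the scalings, past 1.5-fold in each, and NAPSA between -1.03 and -0.37, past 1.5-fold on centring by reference genes.

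The lineage factors divided by level. NKX2-1 had 2 probe sets. The one with the higher mean (16792135) read 2.23 static and 2.13 stretched, a difference of -0.10, and the dimmer one (16783467) read 1.86 and 1.45, a difference of -0.41. All 4 values lay within the background range and below the level filter. In the order of probe set identifiers, 10 named probe sets on each side were taken. Those of other genes on the same chromosome with a known strand were kept. All 14 kept around the first belong to genes on the minus strand, as NKX2-1 is. All 18 kept around the second belong to genes on the plus strand. Which strand the dimmer probe set reads was not tested. The NKX2-1 difference had a size under 0.10 and the opposite sign after quantile normalization (0.04) and loess (0.06), and stood at -0.60 with the arrays centred on reference genes.

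GATA6 encodes a zinc finger factor of the endoderm that acts with NKX2-1 on surfactant promoters and also serves in gut, pancreas and heart. Its probe set (16851383) read 4.55 static and 5.37 stretched, a difference of 0.82 or 1.77-fold. Both values exceed the background bound, while the static one is below the 4.71 of the highest unrelated-tissue gene. Of genes past the filter, 18.1% were at least as much higher. The GATA6 difference fell short of 1.5-fold under 3 scalings, at 0.50 after loess, 0.43 after quantile normalization and 0.32 on centring by reference genes, and stood at 0.92 after median centring.

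**Figure D3:**
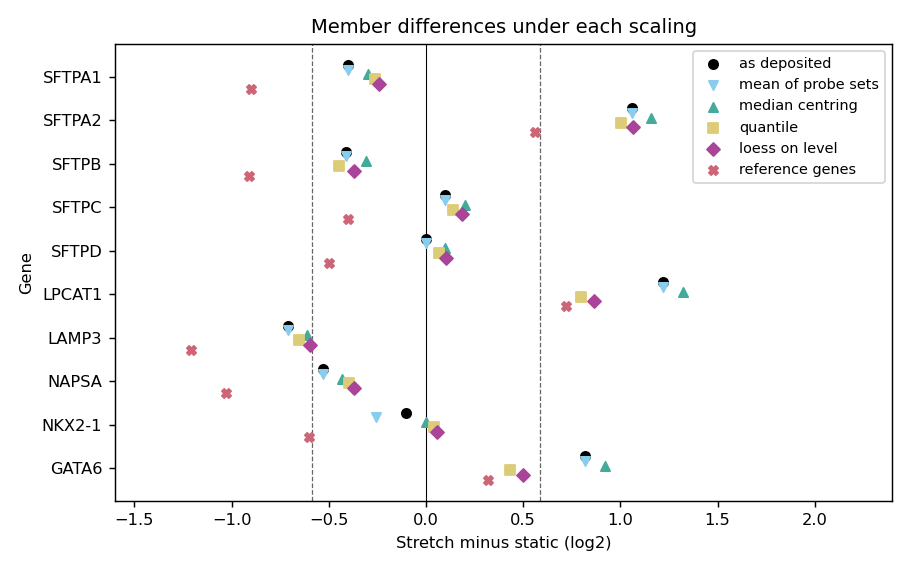
Difference of each member (stretch minus static, log2, horizontal axis) as deposited and under 5 alternatives, 1 symbol for each; dashed lines mark 1.5-fold. LPCAT1 stays right of the upper dashed line and LAMP3 left of the lower one under every scaling drawn. GATA6 crosses inward after quantile normalization, loess and centring on reference genes, and SFTPA2 in the last of these. SFTPA1, SFTPB, NAPSA and NKX2-1 cross the lower line outward with the arrays centred on reference genes.

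Genes related to 4 members by family or by name are given beside them as values. A group whose genes differ in level is not free of a shift between the arrays that varies with level. LPCAT1 stood at 1.22, while LPCAT2, LPCAT3 and LPCAT4, acyltransferases that share its name but not all its protein family, stood at -0.32, -0.25 and 0.08. Their values on the static and stretched arrays were 7.40 and 7.08 for LPCAT2, 8.67 and 8.42 for LPCAT3 and 6.34 and 6.42 for LPCAT4, all above background. LPCAT1 was the one of these 4 LPCAT genes that differed by 1.5-fold as deposited, and it had the highest difference of the 4 under each scaling tried. LPCAT4 turned negative after quantile normalization, loess and centring on reference genes. LPCAT2 passed 1.5-fold downward in the same 3 and LPCAT3 on centring by reference genes (-0.75).

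The other GATA genes were mostly dimmer or at background. GATA1 (-0.34), GATA2 (-0.55), GATA3 (0.16), GATA4 (0.10) and GATA5 (-0.41) all differed by less than 1.5-fold as deposited. GATA2, GATA4 and GATA5 lay at background in both conditions. GATA3 read 4.05 and 4.21, across the bound, and GATA1, a blood cell factor, read 4.67 and 4.33, above it. The values of both genes lie below the 4.71 of the highest unrelated-tissue gene. With the other scalings, GATA3 turned negative after quantile normalization, loess and centring on reference genes, and GATA4 in the last of these. GATA1 passed 1.5-fold downward in the same 3, GATA2 after quantile normalization and centring on reference genes, and GATA5 in the latter.

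LAMP1 and LAMP2, the general lysosomal membrane proteins, read 6.40 and 7.21 on the static and 6.78 and 7.13 on the stretched array. Their differences were 0.38 and -0.08. LAMP3 (-0.71) was at background, so its difference cannot be ranked against theirs. LAMP1 turned negative after quantile normalization and centring on reference genes and LAMP2 positive after median centring (0.02). Among aspartic proteases, CTSD, the lysosomal cathepsin D, went from 9.61 to 10.02 and CTSE from 3.30 to 3.54, the latter within the background range. PGC, pepsinogen C, which type II cells also make, read 2.16 and 2.06 and did not meet the level filter. Their differences were 0.41 for CTSD, 0.24 for CTSE and -0.10 for PGC, beside -0.53 for NAPSA, which was at background. CTSD and CTSE turned negative on centring by reference genes and PGC positive after quantile normalization and loess.

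**Figure D4:**
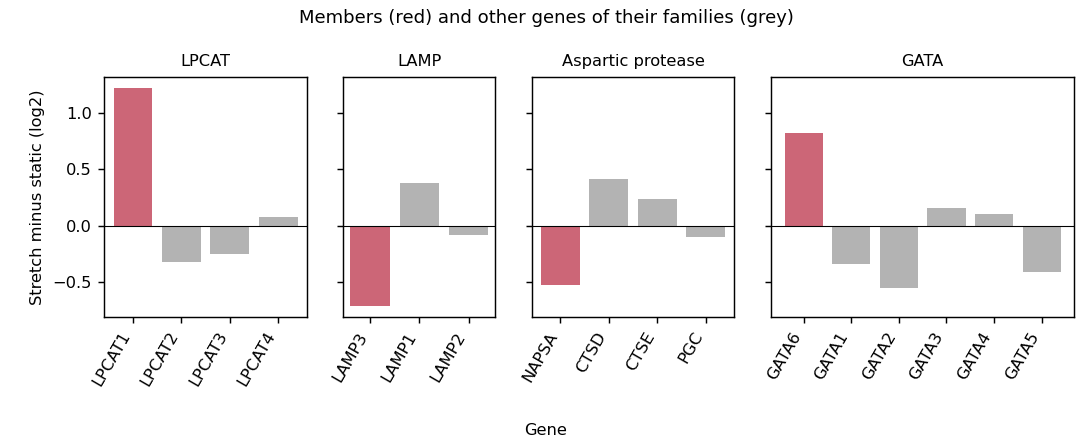
Difference (stretch minus static, log2, vertical axis) of LPCAT1, LAMP3, NAPSA and GATA6 (red bars) and other genes of the same family or, for LPCAT, the same name (grey bars), from 1 array a condition and with no error to draw. LPCAT1 (1.22) and GATA6 (0.82) lie above 0, and LAMP3 (-0.71) and NAPSA (-0.53), whose signals were at background on both arrays, lie below 0.

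Other type II markers followed the members in level. Of 17 named (30 listed), 12 lay at background in both conditions and 4 above it on both. Past the filter, 1 of 13 was higher by 1.5-fold or more and 1 lower, beside 27.7% and 8.9% of all genes past it. Centring on reference genes gave 1 and 5. The median was 0.15, against 0.20 over all genes past the filter. SDC4, the heparan sulfate proteoglycan syndecan 4, went from 6.70 to 8.95 (2.25), and LRRK2, a kinase of lysosomes and lamellar bodies, from 4.96 to 4.48 (-0.48). SFTA2, a small secreted surfactant-associated protein, stood at -0.60 by its highest probe set and between 0.02 and 0.08 by its other 4, all within the background range. DPP4 read 3.29 and 3.76. ABCA3, the lipid pump of lamellar bodies, and the phosphate carrier SLC34A2 were unnamed here.

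Genes that make surfactant phospholipid, most of which every cell uses, were nearly all above background. Of 27 named (42 listed), 26 lay above the bound on both arrays, 10 were higher by 1.5-fold or more and 0 lower. Past the filter, 27.7% of all genes were higher and 8.9% lower, and 36.9% were higher among those with a mean above the bound. The median of the lipid synthesis genes, 0.38, equals that of all genes with a mean above the bound, 0.38. Their split was 6 higher and 3 lower after quantile normalization, 8 and 2 after loess, and 3 and 5 with the arrays centred on reference genes. INSIG1 (2.11) and SREBF2 (1.28), of sterol control, had among the largest differences, with PGS1 (1.54, from 4.21 to 5.75), which makes the precursor of phosphatidylglycerol, and the fatty acid activating enzyme ACSL4 (1.08, from 5.95 to 7.03). Phosphatidylglycerol is the second main phospholipid of surfactant. PCYT1A, the rate-limiting enzyme of phosphatidylcholine synthesis, was unnamed here.

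Of 21 named genes (37 listed) of lamellar body formation, protein processing and secretion, 20 met the level filter. Of these, 6 were higher by 1.5-fold or more and 1 lower, near the 27.7% and 8.9% of all genes past the filter. The counts were 2 and 2 after quantile normalization, 3 and 2 after loess and 1 and 3 on centring by reference genes. VPS33B, a vesicle tethering subunit of lamellar body formation, went from 4.55 to 5.74 and HPS4, of the Hermansky-Pudlak complexes that build lysosome-related organelles, from 3.80 (within the background range) to 4.77. STXBP2, which drives vesicle fusion, stood at 0.69. VAMP8, a vesicle SNARE, was lower, from 6.41 to 5.45 (-0.96).

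Among 35 named regulators of lung lineage and surfactant genes (52 listed), 30 met the level filter. Of these, 5 were higher by 1.5-fold or more and 5 lower, beside 27.7% and 8.9% of all genes past the filter. The counts were 3 and 6 after quantile normalization and 3 and 5 after loess. Centring on reference genes gave 3 and 12 of 33 past the filter. ETV4, a target of FGF signalling, went from 4.91 to 6.73 (1.82), SMAD3, the TGF-β effector, from 3.57 (within the background range) to 5.05 (1.48) and BMP4 from 5.30 to 6.59 (1.29). FOXP2, a repressor in the airway epithelium, stood at -1.21, at background in both conditions. FOXA2, a partner of NKX2-1 picked here for that role after its values were seen, read 5.89 and 6.10 (0.21), above background on both arrays. In the list of other GATA and NKX2 genes, 0 of 11 past the filter differed by 1.5-fold, beside the same shares of all genes. Lower were 3 of 10 after quantile normalization, 2 of 11 after loess and 9 of 13 with the arrays centred on reference genes. NKX2-6 stood at -0.42 and NKX2-5 at 0.39.

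Of proteins related to the surfactant proteins by fold, and receptors for them, 17 genes met the level filter (23 named, 26 listed). Of these, 2 were at least 1.5-fold higher and 2 lower, beside 27.7% and 8.9% of all genes past the filter. PSAP, prosaposin, whose saposin fold SFTPB shares, went from 8.61 to 9.57 (0.96) and SIRPA, a receptor of SFTPA and SFTPD, from 5.50 to 6.26 (0.76). The other SIRPA probe set read 2.83 and 2.97 (0.14), at background, and the mean of both fell short of 1.5-fold, which left 1 gene higher. PSAPL1 (-0.74) and GNLY (-0.69), further saposin-like genes, lay at background in both conditions. Loess gave 1 higher and 2 lower, quantile normalization the same numbers, and centring on reference genes 0 and 5.

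**Figure D5:**
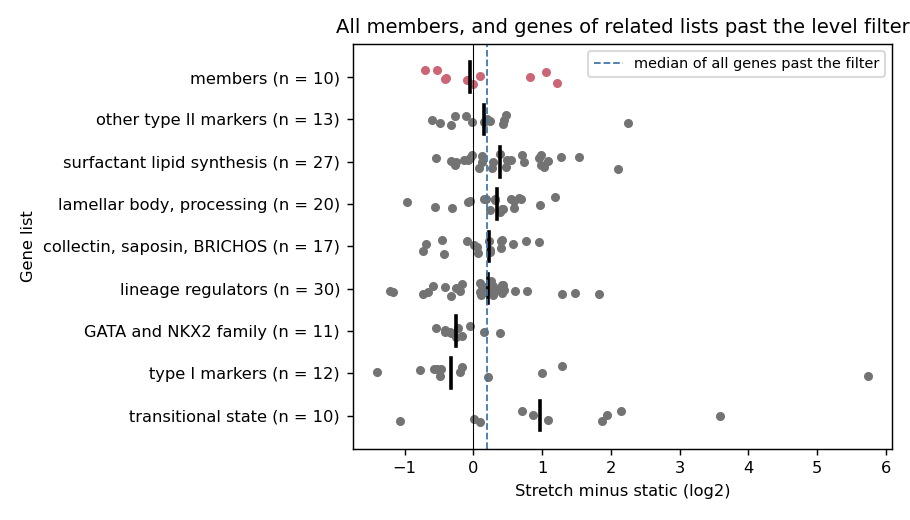
Difference (stretch minus static, log2, horizontal axis) of all 10 members (red) and of the genes past the level filter in 8 related lists (grey), 1 point a gene, with the median of each list as a black bar and that of all genes past the filter, 0.20, as a dashed line. The members spread from -0.71 to 1.22 around a median of -0.05, which includes 3 members below the filter and stands beside 0.06 over all 14884 named genes. The median of the lipid synthesis genes, 0.38, equals that of all genes with a mean above the background bound.

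The identity of the cells was checked with epithelial and A549 genes. Of 9 named (18 listed), 8 lay above the background bound on both arrays, KRT19 being the exception. As deposited, 6 of the 9 were higher by 1.5-fold or more, with the largest differences in KRT7 (2.15), CLDN1 (1.29), TXNRD1 (1.15) and KRT8 (0.87), and 1 was lower, EPCAM (-0.59). Of all genes past the filter, 27.7% were higher and 8.9% lower, and 36.9% were higher among those with a mean above the bound. KRT7 and KRT8 also stand in the transitional list given below, which held genes already known to differ. This list was counted as deposited only. Of 10 named fibroblast, endothelial and immune markers (23 listed), 8 lay at background in both conditions, among them PECAM1, VWF, KDR, DCN, LUM, CD163 and MARCO. CD14 (5.13 and 5.53) and CD68 (7.51 and 8.58) did not. The label of type II genes thus describes what the members do in the lung. In these cells 8 of the 10 gave no signal above the background bound on either array. Of all 14884 named genes, 6781 reached that bound on at least 1 array.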

How the data were processed

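Per the submitters' processing notes, the deposited log2 values are RMA values. The software, chip definition and genome build are not stated in the labels used here, and the log2 scale fits their range (static 0.61 to 12.7, stretch 0.60 to 12.6). The medians of both arrays differ (2.57 and 2.47), so the scaling between them is unknown. RMA compresses dim signals and carries no detection call. Probe sets were named by the platform annotation through gene identifiers: 16098 have 1 symbol, 0 have several and 37519 are unnamed here. The probe set with the highest mean stood for a gene. Promoter windows are RefSeq's (7 of 10 members matched at the outermost start of the gene).

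The members and lists were chosen with earlier results of these data known, and the lists with ANKRD1 and CCN2 hold genes already known to differ. Named from each list were up to 4 genes past the level filter with the largest differences, and genes related to members by family or by name. Others were chosen after their values were seen: COLEC10, COLEC11, COLEC12, FOXA2, EPCAM, KRT19 and some cell type markers. Alternatives were the mean of all probe sets, 4 scalings and 2 level filters. The quantile and loess functions were tested on simulated arrays with little noise and few changed probe sets. How they act where as many genes differ as here was not tested. Tools were Python 3.11.15, numpy 2.4.6, pandas 2.3.3, statsmodels 0.14.6, Biopython 1.88 (global alignment) and matplotlib 3.10.9. The number of arrays limits the precision.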

Additional observations from a re-analysis of the deposited data

How the results depend on the processing

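No paired analysis was possible because each condition has 1 array, and no array could be left out. The 4 members past 1.5-fold became 2, LPCAT1 and GATA6, when the filter was raised to 4.15, the background bound. The 2 members past 2-fold became 1 under 3 alternatives: SFTPA2 after quantile normalization and after loess, and LPCAT1 under that filter. With the arrays centred on reference genes, which lowers every difference by 0.50, the count past 2-fold was again 2, but both, LAMP3 and NAPSA, were lower, and SFTPA1 (-0.90), SFTPB, NAPSA and NKX2-1 passed 1.5-fold downward. Of these, SFTPA1 and NKX2-1 are below the level filter. The 52 related genes past 1.5-fold (36 higher, 16 lower), of 155 past the filter as deposited, became 79 on that centring (14 higher, 65 lower). All named genes moved likewise, from 3042 higher and 977 lower of 10981 past the filter to 1098 higher and 3814 lower of 11545. Member differences kept their side of 1.5-fold in 54 of 62 comparisons with an alternative. Part of these could not differ, since a change of level filter leaves a difference as it is. The mean of probe sets could alter NKX2-1 alone, the member with 2 probe sets. Counts of the single lists stayed within 1.5 times in 56 of 70. That comparison adds higher and lower genes together, so a turn of direction can pass as unchanged. Lipid synthesis, with 10 higher and 0 lower as deposited, passed at 3 and 5 on centring by reference genes. Regulators passed likewise, from 5 and 5 to 3 and 12. The mean of probe sets could alter only list genes with several. Dim signal limits 8 of the 10 members: a change in their transcript below the background bound was not detectable here.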

Other observations

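Genes of the type I cell, into which type II cells mature, were mostly dim. Of 17 named (26 listed), 11 lay at background in both conditions. Past the filter, 3 of 12 were at least 1.5-fold higher and 2 lower, beside 27.7% and 8.9% of all genes past it. Genes already known to differ in these data were in this list. ANKRD1, a stretch-responsive muscle and epithelial gene, read 2.39 and 8.13, the actin-binding LMO7 4.85 and 6.14 and VEGFA 4.69 and 5.69. TIMP3 read 3.86 and 2.46, within the background range. AGER, the receptor that marks type I cells in the lung, was picked after its values were seen and read 3.73 and 3.94, within the background range. TIMP3 has 2 probe sets and AGER 7, and the values given are of the one with the highest mean. With the arrays centred on reference genes, 2 were higher and 10 lower of 15 past the filter.

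Of the markers of the transitional state between type II and type I cells, 10 met the level filter. Of these, 7 were higher by 1.5-fold or more and 1 lower, beside 27.7% and 8.9% of all genes past the filter. On centring by reference genes, 4 were higher and 2 lower of 11. The median was 0.98, against 0.20 over all genes past the filter. CCN2 (3.59), KRT7 (2.15), HBEGF (1.94, from 3.16, within the background range) and SFN (1.87) had the largest differences. CCN2 has 2 probe sets, and its value is that of the one with the higher mean. The list held genes already known to differ in these data, so its counts support nothing on their own, and 15 of its 26 genes were unnamed here.

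Of 18 named liver and gut lineage genes (27 listed), 12 met the level filter. Of these, 1 was at least 1.5-fold higher and 3 lower, beside 27.7% and 8.9% of all genes past the filter. The counts were 0 and 5 after quantile normalization or loess. On centring by reference genes they were 0 and 11 of 15 past the filter. APOH, apolipoprotein H of the liver, read 8.93 and 7.54 (-1.39) and FGG, the fibrinogen gamma chain, 6.22 and 5.45 (-0.77). TFF1 read 3.74 and 4.37, and VIL1 read 3.36 and 2.54, within the background range. Of 9 named airway genes (20 listed), AGR2 of mucous cells read 5.43 and 6.09 and MSLN 4.27 and 3.64, with SPDEF at -0.30 and FOXJ1 at -0.33. Past 1.5-fold were 1 higher and 1 lower of 6 past the filter, beside 27.7% and 8.9% of all genes past it. The counts were 0 and 3 after quantile normalization and 0 and 4 of 7 on centring by reference genes.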
